A study of Homo sapiens with 12 samples.

Results

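Of the 25317 regions in the enzalutamide list, 6496 (25.7%, exact 95% interval 25.1 to 26.2) lay between genes and in neither of the other lists. They are called the enzalutamide-only intergenic regions here. They were selected on the authors' own calls, being listed after enzalutamide and sharing no base with the OSU-ERb-12 list or the list for both agents, and on position. A region had to overlap no RefSeq gene of any class and to lie more than 1 kb from every protein-coding gene. The enzalutamide-only intergenic regions covered 1722.9 kb of the 6937.9 kb of the enzalutamide list, and the 3 lists together held 49496 regions. Of the 25317 enzalutamide regions, 23003 were in neither other list, wherever they lay, and 7028 (27.8%) lay between genes. The 6496 were 92.4% of those 7028, so being in neither other list was common over the whole enzalutamide list. The lists came from ATAC-seq, in which a transposase cuts and tags open chromatin, and from its nucleosome-free fraction in 22Rv1 cells, an established line of human prostate cancer. The 12 samples fell into 4 groups of 3, each treated for 6 h: 1 µM enzalutamide, 100 nM OSU-ERb-12, OSU-ERb-12 plus enzalutamide (no doses in the labels of these samples), and vehicle. All samples came from this 1 cell line, with the genotype given as WT, and the replicates were described as biological. The labels give no batch or day.

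Enzalutamide is an antiandrogen used against prostate cancer. OSU-ERb-12 acts on oestrogen receptor beta. Steroid hormone receptors act mainly at enhancers, which are stretches of DNA that bind transcription factors and act on promoters over a distance, and many of them lie between genes. A region between genes may be an enhancer, an insulator, or the start of an unannotated transcript, and its position alone does not tell which. The deposited lists hold positions, and the score of every region is 0. Each list has "neg" in its name, which the sources used here do not define. Whether the lists hold differences of a single sign is therefore unknown. The sources do not say whether a listed region was more or less accessible than in vehicle, so no direction is given. No value per library was at hand, which leaves no test of a difference between groups or between sets of regions, and regions of 1 list are not replicates. The intervals given cover the counting of regions only, and no result below is called particular to these regions. The lists do not give the sequencing depth, so it is unknown here.

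At 38 enzalutamide-only intergenic regions the listed DNA reached into the promoter window of a long non-coding RNA gene, which runs from 250 bases before the start to 50 after it. These windows belonged to 39 genes, and in 11 of them the region covered 200 bases or more. Over all 11462 long non-coding RNA genes with a window in the reference, 0.34% were reached by such a region, and 0.096% (11 genes) by an OSU-ERb-12-only intergenic region. The OSU-ERb-12-only set held 5351 regions over 1222.35 kb, against 6496 over 1722.9 kb, and the shares were not matched for this. Windows wholly inside another gene or within 1 kb of a protein-coding gene end cannot be reached under the rule. They were kept in these shares and in the comparisons with all windows below. FALEC, a focally amplified long non-coding RNA gene, had the most bases covered. DRAIC, a long non-coding RNA gene described in prostate cancer, and LINC00910, reached by a region of 700 bp, are shown for comparison, with LINC00938 and LINC00626 as further windows with over 200 bases covered. The 5 windows were chosen after the values were seen. They are the RefSeq sequences on GRCh38.p14, 5′ to 3′ on the strand of the gene, and the capitals mark the bases that lie within the listed region.
FALEC, chr1:150515502-150515801, plus strand, region chr1:150515501-150515750: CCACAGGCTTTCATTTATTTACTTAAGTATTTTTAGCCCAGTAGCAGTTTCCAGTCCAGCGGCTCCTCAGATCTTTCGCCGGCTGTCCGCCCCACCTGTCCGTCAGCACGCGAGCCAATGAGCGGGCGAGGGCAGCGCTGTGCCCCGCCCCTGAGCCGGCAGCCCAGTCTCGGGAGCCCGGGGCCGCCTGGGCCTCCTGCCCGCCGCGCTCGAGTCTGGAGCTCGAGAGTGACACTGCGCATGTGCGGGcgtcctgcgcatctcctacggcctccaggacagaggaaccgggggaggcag
LINC00938, chr12:45727872-45728171, minus strand, region chr12:45727951-45728200: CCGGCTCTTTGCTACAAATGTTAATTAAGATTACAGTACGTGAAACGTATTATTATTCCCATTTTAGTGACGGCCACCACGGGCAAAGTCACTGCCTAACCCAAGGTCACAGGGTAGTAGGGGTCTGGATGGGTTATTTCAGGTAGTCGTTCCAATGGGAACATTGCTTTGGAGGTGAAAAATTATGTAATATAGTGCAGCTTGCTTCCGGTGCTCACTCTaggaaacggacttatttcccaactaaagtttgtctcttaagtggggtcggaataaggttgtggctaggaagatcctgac
LINC00626, chr1:168786691-168786990, plus strand, region chr1:168786501-168786900: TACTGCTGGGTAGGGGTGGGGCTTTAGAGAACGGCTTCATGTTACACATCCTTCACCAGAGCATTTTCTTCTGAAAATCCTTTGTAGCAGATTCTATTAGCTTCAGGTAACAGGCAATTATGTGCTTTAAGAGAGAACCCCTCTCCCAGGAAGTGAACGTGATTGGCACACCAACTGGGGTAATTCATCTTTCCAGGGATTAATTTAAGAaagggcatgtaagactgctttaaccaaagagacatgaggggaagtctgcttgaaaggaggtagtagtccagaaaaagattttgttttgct
LINC00910, chr17:43388849-43389148, minus strand, region chr17:43389001-43389700: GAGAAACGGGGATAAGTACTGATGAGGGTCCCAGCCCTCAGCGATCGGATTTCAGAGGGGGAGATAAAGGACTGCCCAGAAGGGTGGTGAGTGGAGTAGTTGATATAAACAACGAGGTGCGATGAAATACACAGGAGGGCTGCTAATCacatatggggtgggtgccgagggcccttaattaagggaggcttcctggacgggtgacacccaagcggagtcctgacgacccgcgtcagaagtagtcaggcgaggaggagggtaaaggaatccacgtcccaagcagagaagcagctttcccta
DRAIC, chr15:69561470-69561769, plus strand, region chr15:69561201-69561600: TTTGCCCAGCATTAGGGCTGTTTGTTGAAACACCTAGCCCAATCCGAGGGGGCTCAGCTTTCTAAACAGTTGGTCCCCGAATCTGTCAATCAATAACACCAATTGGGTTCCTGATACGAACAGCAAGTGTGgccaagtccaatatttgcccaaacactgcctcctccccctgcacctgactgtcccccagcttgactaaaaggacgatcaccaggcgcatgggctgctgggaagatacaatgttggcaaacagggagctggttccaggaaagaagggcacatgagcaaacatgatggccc

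In these windows the listed DNA could lie only before the start of the gene. The selection left out every region that shares a base with a gene, so stopping before the start is set by the rule. In FALEC the region covered 249 of the bases and stopped just before the start, and in DRAIC it covered 131 at the far end of the window and lay 104.995 kb from RPLP1, the nearest protein-coding gene. The next region of another list was 9.35 kb from the FALEC region, whose nearest protein-coding gene was ECM1, and 84.95 kb from the DRAIC region. The GC content of the 39 windows ranged from 37.0% to 80.0% with a median of 56.7%, against 47.3% for the 11 windows reached by OSU-ERb-12-only intergenic regions, 50.0% for all long non-coding RNA windows and 58.3% for the windows of all 27305 genes. The median number of CpG dinucleotides was 11 in the 39 windows, 3 in the 11 OSU-ERb-12 windows, 5 in all long non-coding RNA windows and 14 in the windows of all genes. The window of LOC124903824 on chromosome 1, 4.49 kb from SKI, had the highest GC content, at 80.0% with 33 CpG dinucleotides.

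Short motifs were searched on both strands of the 39 windows. AGAACA, one arm of the steroid response element, was present in 5 windows (12.8%), against 19.9% of all long non-coding RNA windows and 14.9% of the windows of all 27305 genes. It was in 5 of the 11 windows reached by OSU-ERb-12-only intergenic regions. Among the 39, the windows of LINC00278 and ZFY-AS1 overlap on opposite strands of chromosome Y. They share an AGAACA site, which is counted in both. A full site, with TGTTCT 3 bases after AGAACA, was in none of the 39. It was in 1 of the 11462 long non-coding RNA windows, and in these letters it is therefore rare in any set of windows. The forkhead motif TGTTTAC was in 3 windows (7.69%), against 4.51% of long non-coding RNA windows. The AP-1 motif TGANTCA was in 2 (5.13% against 10.5%), the GATA motif AGATAA in 1 (2.56% against 14.5%), CAATAAA, read by HOXB13, in 0 (against 5.92%), and AGGGGGC, part of the CTCF motif, in 3 (7.69% against 8.72%). None of the 6 short motifs contains another, and the full site contains AGAACA. In the bases covered by a region, 10 of the 39 genes had at least 1 of the 6 short motifs, among them AGATAA in LINC00910 and AGGGGGC in DRAIC. The 10 include both LINC00278 and ZFY-AS1. The covered bases numbered 3 to 249 per window, and no share over other windows was computed to set beside this count. For the other regions no sequence was at hand.

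Most of the regions lay within reach of a protein-coding gene, and a smaller part lay in gene deserts. The median distance to the nearest protein-coding gene was 43.1 kb, with quartiles of 11.8 and 153 kb. Within 10 kb of such a gene lay 22.1% of the regions and within 100 kb 67.5%, while 533 regions (8.21%) were over 500 kb away. OSU-ERb-12-only intergenic regions had a median of 48.7 kb, combination-only intergenic regions 40.7 kb, and the 532 intergenic enzalutamide regions that overlapped another list 28.7 kb. Points set every 1 kb in all intergenic DNA had a median of 145.6 kb, and 27.6% of them were over 500 kb from a gene. These points include assembly gaps and centromeres, so the medians are not matched for the DNA that reads could be placed in.

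**Figure D1:**
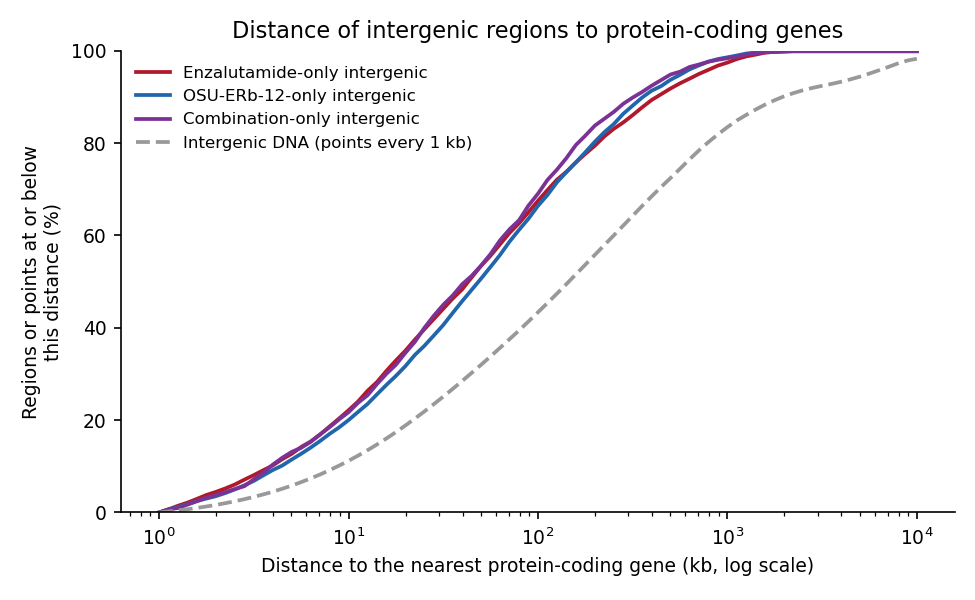
Cumulative share of intergenic regions (solid lines, 1 for each set) and of points every 1 kb in intergenic DNA (dashed) by distance to the nearest protein-coding gene, on a log axis in kb. The enzalutamide-only curve runs close to those of the other sets and above that of intergenic DNA, with 67.5% of its regions within 100 kb against 43.4% of the points.

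The regions lay on both sides of their genes. The strand of the nearest protein-coding gene was in the reference for 5036 regions, and 2700 of them (53.6%, interval 52.2 to 55.0) were upstream of it. The share was 51.8% for OSU-ERb-12-only intergenic regions (50.2 to 53.3), 50.6% for combination-only ones and 50.2% for points in intergenic DNA. From 1 to 5 kb the upstream share was 54.6% (50.6 to 58.5) for the enzalutamide-only regions and 49.4% for the points. The shares were 53.8% and 53.3% from 5 to 20 kb, 55.6% and 53.7% from 20 to 100 kb, and 50.4% for both from 100 to 500 kb. Beyond 500 kb, where 27.6% of the points but 8.21% of the regions lay, they were 53.5% for the regions and 45.0% for the points. When all gene classes were counted, the nearest gene was a long non-coding RNA gene for 2621 regions (40.3%), a protein-coding gene for 2040 (31.4%) and a pseudogene for 1510 (23.2%), and the median distance to any gene was 12.03 kb.

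Close to the limits of the selection, 157 regions lay less than 1500 bp from a protein-coding gene, the nearest of them at 1001 bp, and 304 unshared enzalutamide regions outside every gene lay between 500 and 1000 bp from one and were left out. A region of another list was within 500 bp of 102 selected regions, and some touched without sharing a base. Of the 532 shared intergenic regions, 35 overlapped another list by 50 bp at most.

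The regions were more often wide than those of the other unshared intergenic sets. The median width was 250 bp, and 46.6% were 200 bp wide, the shortest width in the lists (interval 45.4 to 47.8). This share was 66.6% for OSU-ERb-12-only intergenic regions (65.3 to 67.9) and 70.3% for combination-only ones (67.8 to 72.6). It was 48.4% for enzalutamide-only regions in gene bodies and 44.6% for those at gene ends, and 36.8% for the shared intergenic ones. A width of 500 bp or more was reached by 115 intergenic regions (1.77%), against 6.88% of the enzalutamide-only regions at gene ends and 2.06% of those in gene bodies. How far depth or the settings of the region caller move with width was not tested.

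**Figure D2:**
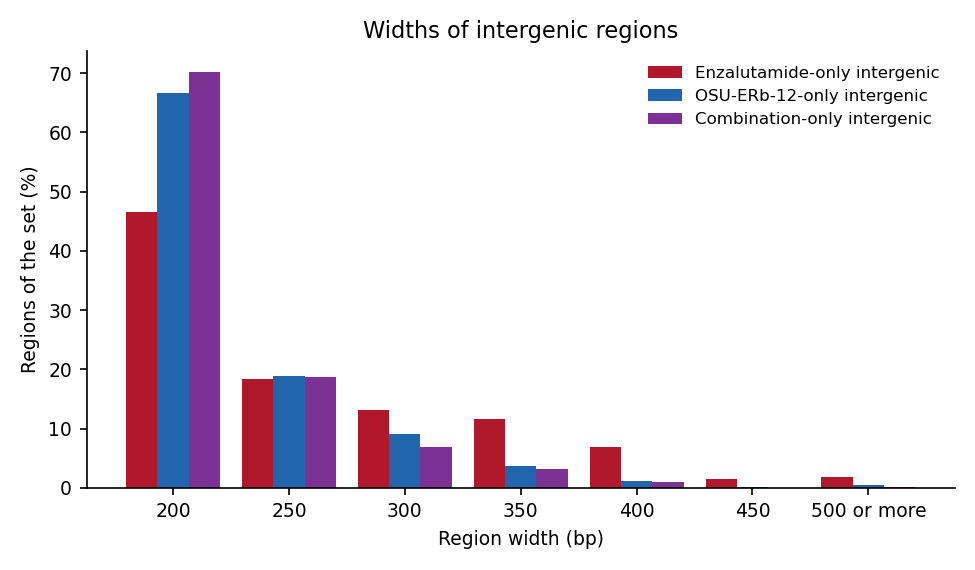
Share of regions (bars, in %) by width in bp for the 3 intergenic sets. The bar at 200 bp is 46.6% for enzalutamide-only regions, against 66.6% for OSU-ERb-12-only and 70.3% for combination-only regions, and the enzalutamide-only bars are the highest from 300 bp on.

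The widest region, 1350 bp, lay at chr14:34331601-34332950, 99.8 kb downstream of SPTSSA, a gene of serine palmitoyltransferase, with no gene of any class within 83.8 kb. The next was 1100 bp wide at chr6:153150401-153151500, 19.1 kb upstream of RGS17, which encodes a regulator of G protein signalling. Others were 950 bp wide near MAN2A1, a Golgi mannosidase gene, 900 bp near LRRN1, and 850 bp near ADAM28. The wide region of 800 bp at chr12:7970351-7971150 was 34.2 kb from SLC2A3, the gene of the glucose transporter GLUT3. Another of 800 bp at chr6:137261351-137262150 was 42.0 kb upstream of IFNGR1, a subunit gene of the interferon gamma receptor. GUCY1A2, GJA3 and NOSIP were the nearest genes of 3 more regions of 800 bp. One of 850 bp at chr6:9399851-9400700 was 964.3 kb from SLC35B3 and belonged to a cluster described below.

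Density differed between chromosomes. The regions numbered 4.70 per Mb of intergenic DNA over the genome, with 7.78 on chromosome 12, 7.40 on 3, 7.34 on 7, 6.98 on 1 and 6.94 on 8. Chromosomes 19 (6.95) and 17 (6.89) were about as dense, while chromosomes 13 (2.70), X (1.90) and Y (0.456) had the lowest densities. Intergenic DNA here includes assembly gaps and centromeres, so densities are not matched for the DNA that reads could be placed in. Chromosome copy number was not taken into account. The 5 chromosomes 1, 3, 7, 8 and 12 were grouped after the data were seen, and the intervals do not allow for that choice. They held 39.7% of the regions (38.5 to 40.9) and 25.7% of intergenic DNA. The same 5 held 52.3% of OSU-ERb-12-only intergenic regions (51.0 to 53.7) and 50.6% of combination-only ones. Within the enzalutamide-only regions the share on them was 39.0% in gene bodies and 28.7% at gene ends. On chromosome X there were 172 enzalutamide-only intergenic regions and 24 OSU-ERb-12-only ones, a ratio of 7.17, against 1.21 over the genome. On chromosome 17 the ratio was 2.10 and on chromosome 8 it was 0.848.

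**Figure D3:**
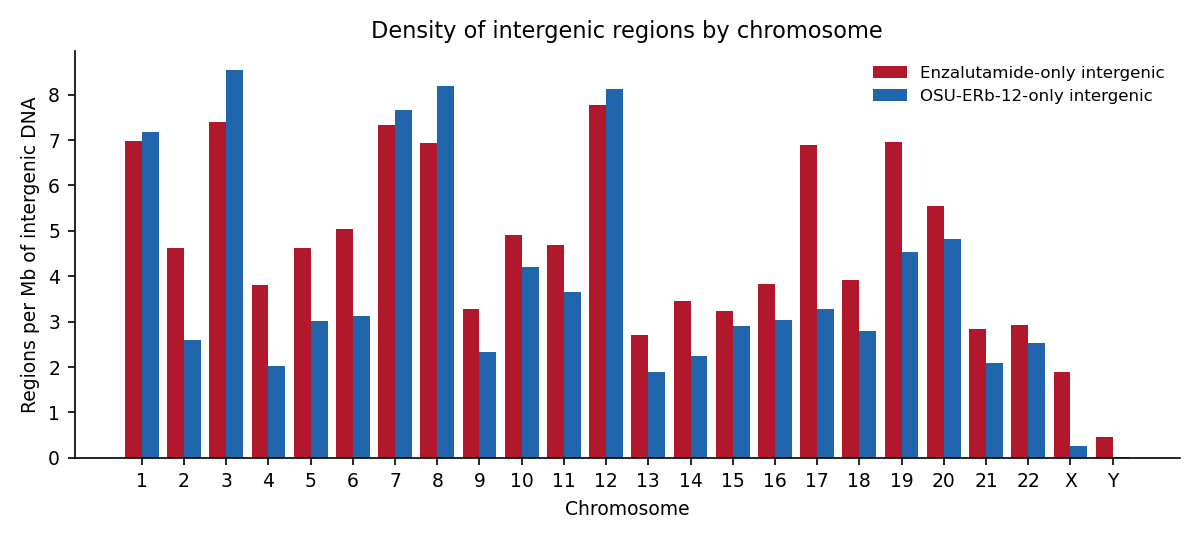
Regions per Mb of intergenic DNA (bars) on each chromosome for enzalutamide-only and OSU-ERb-12-only intergenic regions. Chromosomes 1, 3, 7, 8 and 12 are the highest for OSU-ERb-12, while for enzalutamide chromosomes 17 and 19 reach 6.89 and 6.95, and chromosome X stands at 1.90 against 0.265.

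The regions were mostly solitary. With neighbours at most 10 kb apart joined, 5444 stood alone and 1052 (16.2%, interval 15.3 to 17.1) were within 10 kb of another. The share was 14.2% for OSU-ERb-12-only intergenic regions (13.3 to 15.2), which are fewer, and 20.7% for enzalutamide-only regions in gene bodies. There were 439 pairs, 47 clusters of 3, 6 clusters of 4 and 1 of 9. An enzalutamide region in a gene, at a gene end or in another list was within 10 kb of 582 regions (8.96%), and a region of another list was within 10 kb of 1398 (21.5%). The median distance to a region of another list was 34.8 kb.

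The cluster of 9 lay at chr21:8990801-9009600 on the short arm of chromosome 21, an acrocentric chromosome whose short arm carries repeated DNA. Its regions were 200 to 300 bp wide, and 7 of them had the miRNA gene MIR10396A as the nearest gene. Of the regions listed for the other treatments, 1 of OSU-ERb-12 and 1 of both agents fell inside the span. The nearest protein-coding gene, LOC101927345, was 350.4 kb away. How reads matching several repeats were placed is not stated in the labels.

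The 6 clusters of 4 lay in both gene-rich and gene-poor DNA. One spanned 4150 bp at chr17:81387551-81391700, 3.76 kb upstream of BAHCC1, and another 8450 bp at chr18:79783051-79791500, 6.44 kb upstream of KCNG2, a potassium channel subunit gene. On chromosome 12 the cluster at 51865101 to 51885050 lay between FIGNL2 and ANKRD33, 3.05 kb from the second. At chr6:9397901-9405600 a cluster lay in a desert, 962 kb from SLC35B3 and 991 kb from TFAP2A, which encodes the transcription factor AP-2 alpha. At chr1:229220801-229229650 a cluster of 4 was 41.5 kb upstream of RAB4A. None of these 6 clusters held an OSU-ERb-12 or combination region within its span. By the rule their own regions could overlap none, and the clusters of 3 named next held none either. How often spans of this length are empty elsewhere was not computed. The tightest clusters of 3 spanned 1600 bp at chr6:156686301-156687900, 88.1 kb upstream of the chromatin remodelling gene ARID1B, 1850 bp at chr2:207284801-207286650, 111 kb from KLF7, and 1900 bp at chr15:92819301-92821200, 79.1 kb upstream of the remodeller gene CHD2.

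Of 8 receptor, lineage and target genes described, TMPRSS2 had the most enzalutamide-only intergenic regions nearby. Of enzalutamide regions outside this selection, KLK3 had 10 within 100 kb and TMPRSS2 had 3. The length of intergenic DNA around each gene was not matched. TMPRSS2, which encodes a membrane serine protease and is a classical androgen-induced gene, had 5 enzalutamide-only intergenic regions within 100 kb. All 5 lay beyond the higher-coordinate end, which is the upstream side, since TMPRSS2 is transcribed from the minus strand. The nearest 3 formed a cluster at chr21:41521651-41521850, chr21:41526651-41526850 and chr21:41528801-41529000, 13.5, 18.5 and 20.6 kb from the gene. The other 2, at chr21:41589751-41589950 and chr21:41593201-41593600, lay 81.6 and 85.0 kb from it, 6.86 and 10.3 kb from PCSEAT, a non-coding RNA gene named for its expression in prostate cancer. No region of the OSU-ERb-12 or combination list lay within 100 kb of TMPRSS2, and the nearest ones were 85.45 to 157.2 kb from the 5 regions. The share of all genes that lack such regions was not computed for the whole lists. An OSU-ERb-12-only intergenic region was within 100 kb of 32.8% of all protein-coding genes, and a combination-only one within 100 kb of 12.9%. Most genes thus had neither kind counted alone, and the absence is not read as a trait of TMPRSS2. The remaining enzalutamide regions around TMPRSS2 were 2 at MX1, an interferon-induced gene beyond the lower-coordinate end, and 1 in LOC105372809. Regions at or in genes could not be selected, which limits the side on which the 5 could lie.

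The other genes had fewer. KLK3, which encodes prostate-specific antigen, had 2 within 100 kb, of which the region at chr19:50868551-50868750 was 7.79 kb downstream and nearer to KLK2, and the other was 76.8 kb upstream and nearest to GPR32. FKBP5, which encodes an immunophilin that binds steroid receptors, had 1 region 26.4 kb upstream, nearest to ARMC12. FOXA1, the gene of a pioneer factor, had 1 at chr14:37566701-37566900, 22.7 kb downstream and nearest to MIPOL1. HOXB13 had 1 at chr17:48746301-48746600, 17.55 kb away and nearest to TTLL6, with an OSU-ERb-12 region 0.25 kb from it. Among receptor genes, ESR1 had 2, at 7.52 and 23.8 kb upstream, while ESR2, which encodes oestrogen receptor beta, had 1 at chr14:64344101-64344350, 5.49 kb upstream. MYC had none, the nearest lying 216 kb away. Other regions did lie within 100 kb of MYC: 3 of the enzalutamide list, all at or in the gene, 5 of the OSU-ERb-12 list, of which 3 were unshared and intergenic, and 1 of the combination list.

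**Figure D4:**
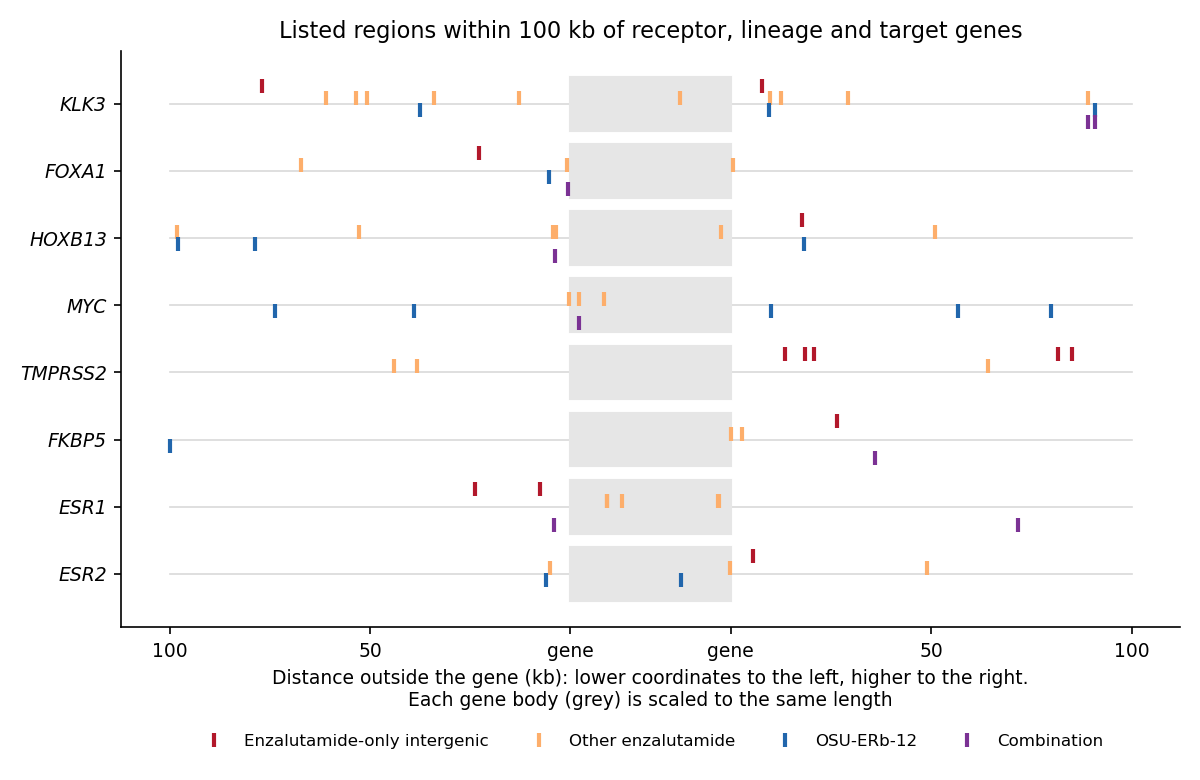
Regions (ticks) within 100 kb of 8 genes, by distance outside the gene in kb, with each gene body (grey) drawn at the same length and lower coordinates to the left. TMPRSS2 shows 5 enzalutamide-only intergenic regions, all on its right, and no tick of the OSU-ERb-12 or combination lists. How many of all genes lack such ticks was not computed.

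Genes of 13 lists were then read against all protein-coding genes. Over all 20037 protein-coding genes, 41.7% had an enzalutamide-only intergenic region within 100 kb, with a median of 0 regions per gene. Of the 342 listed genes, counted once each, 179 (52.3%, interval 46.9 to 57.7) had one. Androgen response genes had one at 22 of 42 (52.4%, median 1), led by ZBTB10 with 10. The zinc finger gene ZBTB10 (chr8:80485593-80526265) had 7 regions beyond its higher-coordinate end, at 3.94 to 57.7 kb, and 3 beyond the lower one, at 81.8 to 84.7 kb. Those at 53.5 and 57.7 kb were nearest to ZNF704. RAB4A, a gene of endosomal recycling, had 5, all upstream at 41.5 to 67.2 kb. For 11 of the 42 genes an OSU-ERb-12-only intergenic region was within 100 kb, against 32.8% of all protein-coding genes, and for 4 a combination-only one, against 12.9%.

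Prostate lineage factors had a region near 15 of 22 genes (68.2%), and an OSU-ERb-12-only one near 14. GRHL1, a grainyhead factor gene of epithelia, had 5 downstream at 8.62 to 95.1 kb, of which 2 were nearest to it and the others to KLF11 and CYS1. TBX3, a T-box factor gene, had 3 within 100 kb, beyond its lower-coordinate end at 3.55, 4.40 and 14.1 kb. KLF5, a Krüppel-like factor gene of epithelial growth, had 3 within 100 kb, at 56.3, 61.1 and 93.7 kb downstream. Nuclear receptors had one near 26 of 48 genes (54.2%), with 3 each at RXRA, the retinoid X receptor alpha gene, and NR5A2. Oestrogen response genes had one near 16 of 24 (66.7%), an OSU-ERb-12-only one near 7 and a combination-only one near 9. There were 4 enzalutamide-only regions at CA12, a carbonic anhydrase gene, 68.3 to 94.4 kb upstream and all nearest to USP3, and 3 each at RET and KRT19. Glucocorticoid response genes had one near 11 of 16 (68.8%), where DUSP1, a phosphatase gene induced early after many stimuli, had 5 downstream at 1.55 to 60.7 kb, the farthest 3 of them nearest to NEURL1B.

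AP-1 and immediate early genes had a region near 10 of 20 (50.0%), with the largest numbers at FOS and EGR1. With a 5 kb window around gene ends the count was 6, where 31.1% of all genes had a region. FOS, which encodes an AP-1 subunit, had 6, and it was the nearest protein-coding gene to all of them: 2 upstream at 23.6 and 48.0 kb, and 4 downstream at 1.02, 19.7, 21.3 and 40.6 kb. EGR1 had 4, at 1.78 and 16.3 kb upstream and 34.6 and 75.1 kb downstream, of which 1 was nearest to it. Wnt signalling genes had one near 15 of 24 (62.5%), and an OSU-ERb-12-only one also near 15, with 3 enzalutamide-only regions each at SFRP1, WNT3A and NKD1. Luminal and basal epithelial genes had an enzalutamide-only region near 13 of 21 (61.9%) and an OSU-ERb-12-only one near 13, where EGFR, the epidermal growth factor receptor gene, had 4, and the neighbouring keratin genes KRT14 and KRT17 had 4 each.

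Developmental factors of gene deserts had one near 22 of 40 genes (55.0%) and ribosomal protein genes near 17 of 31 (54.8%), where RPLP1 had 3 downstream at 9.80, 11.8 and 12.5 kb. The ribosomal count was 7 within 50 kb, where 26.8% of all genes had a region, and 9 with the 5 kb window. The other 3 lists had shares below 41.7%. Cell cycle genes had one near 10 of 30 (33.3%), led by the replication factor gene MCM5 with 4, none of them nearest to it. Epithelial-mesenchymal transition genes had one near 7 of 20 (35.0%), led by COL1A1 with 3, and neuroendocrine and neural factors near 7 of 23 (30.4%). Within 200 kb the counts were 17 for cell cycle genes, 11 for epithelial-mesenchymal transition genes and 16 for neuroendocrine and neural factors, where 60.2% of all genes had a region. Of the last, MYCN had 4, at 28.0 and 90.4 kb upstream and 83.2 and 85.0 kb downstream, ASCL2 had 4, and POU3F2, a neural POU factor gene, had 3 at 1.52, 6.24 and 19.6 kb. All lists but prostate lineage factors and oestrogen response genes had an interval that reached 41.7% or lower, and glucocorticoid response genes began at 41.3%. The counts were not matched for gene length or for the density of neighbouring genes, and lists were not tested.

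**Figure D5:**
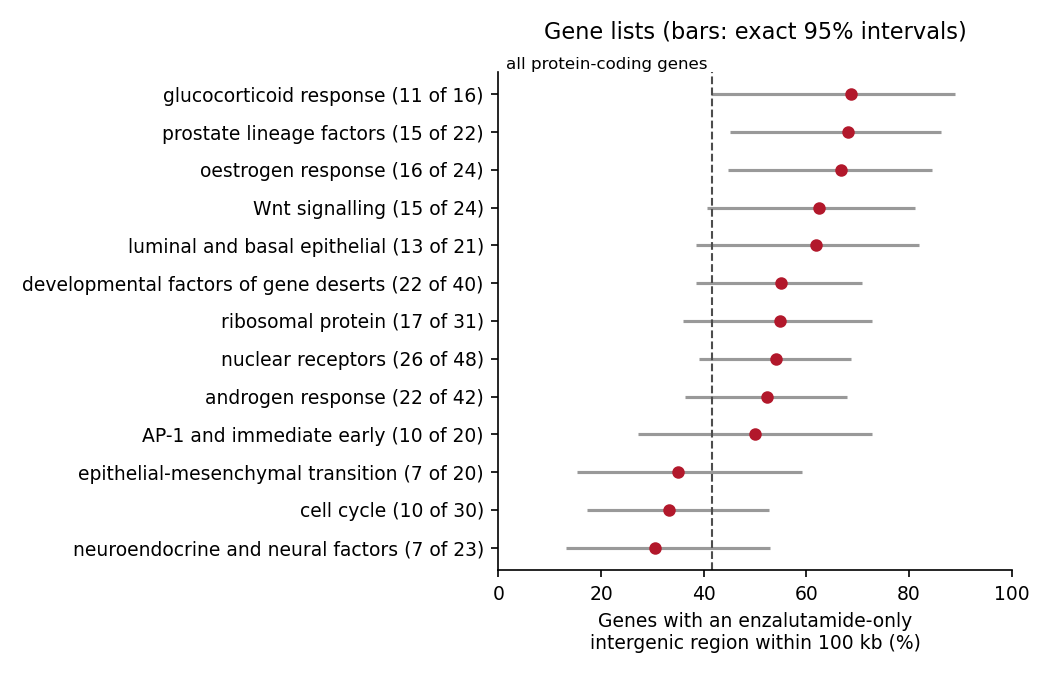
Share of genes (points, in %) with an enzalutamide-only intergenic region within 100 kb for 13 gene lists, with exact 95% intervals (bars) and the share over all protein-coding genes (dashed line, 41.7%). Glucocorticoid response, prostate lineage and oestrogen response genes stand highest, at 68.8%, 68.2% and 66.7%, and neuroendocrine and neural factors lowest, at 30.4%.

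Some regions belonged to long stretches without protein-coding genes, and 8.21% of all lay over 500 kb from one. Each region was assigned to its nearest protein-coding gene, and 3886 genes were nearest for at least 1, and 156 for 5 or more. GFRA2, the gene of a receptor for neurturin, was nearest for 13 regions, 9.85 to 676 kb away with a median of 524 kb. TENM3, a teneurin gene, was nearest for 12, all upstream and at a median of 1389 kb. NSUN3, SEMA3D, ZPLD1 and KCNT2 were nearest for 11 each. For KLF5 there were 10, all downstream, from 56.3 to 260.9 kb. The guidance receptor gene ROBO1, the vascular cadherin gene CDH5 and POM121L12 were nearest for 10 each. ROBO1 had 7 upstream and 3 downstream. Both the length of the neighbouring desert and the number of regions set such a count, so it does not rank the genes.

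Among the most remote regions were some in short arms and around centromeres. Distances on Y are not given, because the gene table lists pseudoautosomal genes on X only. For the same reason, whether any region on Y overlaps such a gene is unknown. The 23 regions on Y were kept in the counts, shares and medians above. On autosomes alone there were 6301 regions, with a median distance of 42.4 kb to a protein-coding gene. On chromosome 22, 2 regions at 10730101 to 10730350 and 11618351 to 11618550 were 4798 and 3910 kb from OR11H1. On chromosomes 15 and 7, 1 region each was 3214 kb and 2795 kb from a predicted gene. These 4 were 200 or 250 bp wide, and such DNA is rich in repeats.

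A few regions lay near miRNA genes outside other genes. Over all 1562 hairpins, 67 (4.29%) had an enzalutamide-only intergenic region within 10 kb and 29 an OSU-ERb-12-only one. Of these hairpins most overlap a gene of another class, in which no such region can lie. Of the 284 that lie in no gene other than miRNA genes, 32 (11.3%) had an enzalutamide-only intergenic region within 10 kb, and 9 an OSU-ERb-12-only one. These counts were not matched for the number or width of regions in the sets. A region lay 3.12 kb from MIR212 and 3.49 kb from MIR132, which are transcribed together and whose 3p products have the same seed, and another lay 4.92 kb from MIR193A. MIR132 itself overlaps another annotated gene and is not among the 32. The mature sequences from RefSeq (GRCh38.p14) are shown with bases 2 to 8, the seed, in capitals. These miRNAs were chosen after the values were seen.
hsa-miR-212-3p: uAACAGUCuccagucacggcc
hsa-miR-132-3p: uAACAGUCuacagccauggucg
hsa-miR-193a-3p: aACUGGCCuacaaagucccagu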

How the data were processed

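Chromatin accessibility in the nucleosome-free fraction was separated by the authors with ATACSeqQC, per the labels' protocols. Per the submitters' processing notes, FastQC and Trimmomatic were used and the build was hg38. Not given in the sources used here are the region caller, its threshold, the test, any pooling of replicates and the direction of the differences. The deposited lists give region boundaries on a 50 bp grid, and the deposited score is always 0 and ranks nothing. Lists were assigned to treatments by the prefixes that they share with sample titles. The prefix WT, taken for OSU-ERb-12, also stands as the genotype of all samples.

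Genes, strands, promoter windows and miRNAs came from RefSeq tables of GRCh38.p14, the same build. They hold 59679 genes on 24 chromosomes, of which 20037 are protein-coding, and strand was given for 15843 of these. All 13 gene lists were matched by symbol or synonym. Overlap means 1 bp or more, and distances are bases between a region and a gene. A chromosome was taken to extend between its outermost gene or region. Intervals are exact Clopper-Pearson at 95%. The computation used Python 3.11.15, pandas 2.3.3, NumPy 2.4.6 and SciPy 1.17.1, and the overlap, distance and cluster steps were tested on simulated data. The planned motif search over all regions was not run, because no genome sequence was used here.

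The members and the gene lists were chosen with earlier results of these data known. Named are the 10 clusters with most regions, the 10 widest regions, the 10 genes nearest to most regions, the 5 most remote regions (the one on Y is left out), up to 3 leading genes per list, and KLK3, FOXA1, HOXB13, MYC, TMPRSS2, FKBP5, ESR1 and ESR2. Some of these are given by count alone, and a few results that the rule covers are not reported here. The promoter windows and miRNAs were added after the data were seen.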

Additional observations from a re-analysis of the deposited data

How the results depend on the processing

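The number of enzalutamide-only intergenic regions was 6538 when at least 50% of the shorter region had to be shared, 6405 when regions less than 500 bp apart counted as shared, 9061 with protein-coding genes alone as genes, and 5672 with a 5 kb window. It was 3469 for regions of 250 bp or more, because 200 bp regions were left out. The share of 200 bp regions was 45.1% without chromosomes 1, 3, 7, 8 and 12, a setting chosen after seeing the data. The median distance to a protein-coding gene was 46.5 kb with protein-coding genes alone, 57.8 kb with the 5 kb window, which removes near regions, and 39.5 kb without those 5 chromosomes. The share within 10 kb of another region was 17.6% with protein-coding genes alone, 9.43% for regions of 250 bp or more, which are fewer, 14.7% without the 5 chromosomes, and 13.7% after neighbours within 1 kb were merged. Listed genes with a region numbered 126 within 50 kb and 237 within 200 kb, where the shares over all genes were 26.8% and 60.2%. They numbered 148 (43.3%) with the 5 kb window, against 31.1% of all genes. Of the 13 lists, the number of genes with a region changed by more than 1.5 times for 3 within 50 kb, 3 within 200 kb and 2 with the 5 kb window. Within 50 kb TMPRSS2 kept 3 regions and ZBTB10 5, and the HOXB13 region was lost when regions within 500 bp counted as shared. EGR1 had none with the 5 kb window. The scores allow no stricter threshold. No paired analysis was possible because the lists hold no value per sample, and for the same reason no replicate could be left out. Depth per library is unknown and limits how many regions could be listed.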
